A study of Sus scrofa with 8 samples.

Results

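Alcohol dehydrogenases oxidise alcohols to aldehydes, and aldehyde dehydrogenases oxidise aldehydes to carboxylic acids, in most cases with NAD+ as the electron acceptor. The liver is the main site of both steps for ethanol, and the same enzyme families act on retinol and retinal, on formaldehyde, on fatty aldehydes and on the semialdehydes that arise when valine, lysine and proline are broken down. The members are a list of 10 alcohol and aldehyde dehydrogenase genes, taken by name with no threshold on their values, although earlier results of these data were known when the list was made. Identifiers of 9 of them (ADH4, ADH5, ALDH1A1, ALDH1B1, ALDH2, ALDH3A2, ALDH4A1, ALDH6A1 and ALDH7A1) were paired with a row of the mRNA table, which lists 21607 genes. ALDH9A1 was not paired with an identifier and was not analysed here.

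The livers came from healthy, unrelated female Yana pigs, an indigenous Chinese breed, of which 2 were young sows aged 180 days (YL) and 2 were old sows aged 8 years (OL). All 4 animals went without food for a night before slaughter, and no agent or genetic change distinguishes the groups. Each liver gave 1 rRNA-depleted RNA-seq library, so each age group rests on 2 animals, and age cannot be told apart from anything else that the old sows shared. This includes reproductive history, as the young sows had never farrowed and the old sows had been culled at the end of a long breeding life. The values are CPM, read counts scaled to a common library total whose definition is not given in the sources used here, and no transcript length enters them, so levels are compared here between livers and not between genes.

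The libraries held 22482241 to 37555696 reads on listed mRNAs, and the 9 dehydrogenases had between 432 and 105053 reads per library, so counting error was small for them. RNA of liver was present in all 4 libraries, as albumin (ALB) was at 29468 and 35205 CPM in YL and at 16534 and 23978 in OL. The 14 hepatocyte markers with an identifier summed to 89450 and 99813 CPM in YL and to 63503 and 68797 in OL, and 10 of them were lower in OL on average. In bulk tissue, fewer cells of a type and less RNA per cell cannot be told apart. Old replicate 1 stood apart from the other livers in interferon-stimulated genes, of which 25 of 25 were above both young livers, with a sum of 2626 CPM against 114 and 127 in YL and 87.8 in old replicate 2, and 12 of them were called higher by the exact test described next. Macrophage markers were higher on average in OL for 6 of 6 genes (sums of 245 and 277 CPM in YL, 392 and 386 in OL), whereas endothelial markers were higher for 4 of 7 genes and lower for 3, with a median log2 fold change of 0.33 that was 0.0097 without old replicate 1 and -0.048 without old replicate 2. The part of these differences in the results below was not tested. Where medians of the gene lists and fold changes of the members are given, they are shown with and without old replicate 1.

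Old and young livers were compared with limma on log2(CPM + 1) over the 16898 mRNAs above 0 in at least 2 libraries. A gene was called when its Benjamini-Hochberg adjusted p-value was under 0.05 and its absolute log2 fold change above 1. ADH4 had the lowest values in OL relative to YL among the 9 genes, ADH5, ALDH6A1 and ALDH7A1 were also below both young livers in both old livers, and ALDH1B1 was above them in both. No member was called by limma, as was the case for all mRNAs tested (0%). With a raw p-value below 0.05, ADH4 and ADH5 were lower and 0 members were higher, where 8.93% of all genes tested were lower (1509) and 6.78% higher (1145) at that level. This split depended on the scale, as after TMM scaling, which estimates a common scale from the bulk of genes, 955 were lower and 1497 higher. The exact test of edgeR on recovered reads called 1 member, ADH4, as lower, against 0.32% of all genes called lower and 2.04% called higher. DESeq2 also called ADH4 alone among the members (1.17% of all genes were called lower and 4.04% higher), and the quasi-likelihood test of edgeR called none of the 9.

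**Figure D1:**
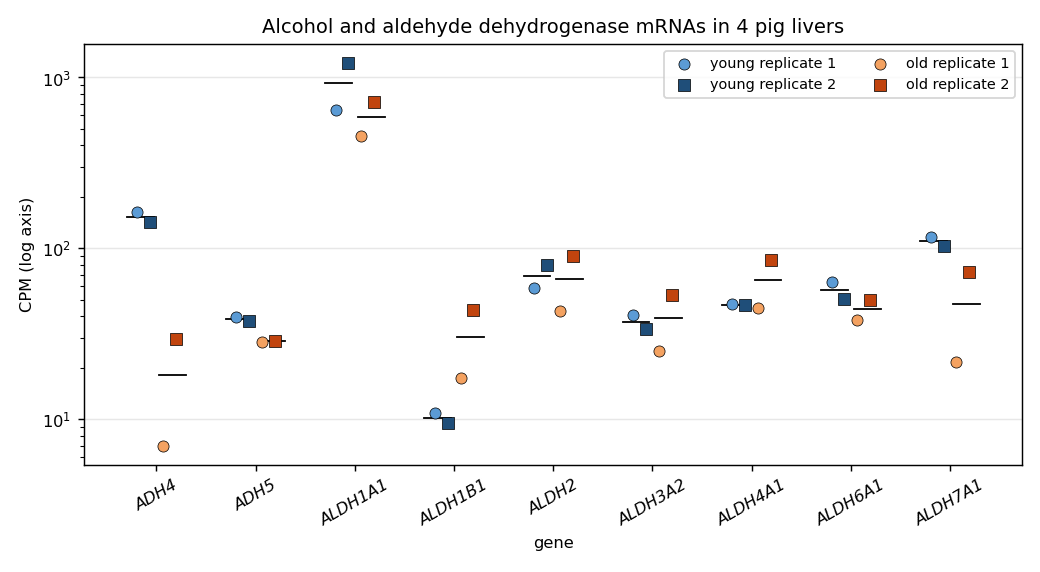
The CPM of 9 alcohol and aldehyde dehydrogenase mRNAs (log axis) are plotted for the 2 young livers (blue) and the 2 old livers (orange), with the mean of each age group as a horizontal line. ADH4 fell from 163 and 142 CPM in the young livers to 7.02 and 29.4 in the old livers by the exact test of edgeR but not by limma, and heights of different genes are not comparable because no transcript length enters CPM.

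Among the alcohol dehydrogenases, ADH4 (ENSSSCG00000009184) encodes a liver enzyme that acts on ethanol, retinol and long-chain hydroxylated lipids. Its CPM were 163 and 142 in YL and 7.02 and 29.4 in OL (replicates 1 and 2 in this order, here and for the genes that follow). Both old livers were far below both young livers, and the old livers also differed from each other by 4.19-fold, whereas the young livers differed by 1.15-fold. The group mean was 152 ± 15.0 CPM (SD, n = 2) in YL and 18.2 ± 15.9 (SD, n = 2) in OL, 8.37-fold lower. By limma the log2 fold change was -3.29 with a standard error of 0.76 (adjusted p = 0.251). It was -2.33 without old replicate 1 and -4.26 without old replicate 2, so the direction was present in each old liver and its size differed between them.

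Whether ADH4 was called depended on the test and on the libraries. The exact test of edgeR, which follows the classic analysis named in the study's methods, gave a log2 fold change of -2.86 with an adjusted p-value of 0.0180 (399 of 16898 mRNAs, 2.36%, were called). With the exact test and 1 library left out, the adjusted p-value of ADH4 was 0.0536 and 0.0666 without young replicates 1 and 2, 0.204 without old replicate 1 and 2.62e-05 without old replicate 2. DESeq2 gave an adjusted p-value of 0.00430 and the quasi-likelihood test of edgeR 0.277. The 95% Poisson intervals of the reads treat reads as independent, which PCR copies are not, and leave out the spread between animals. These intervals were 6.37 to 7.71 CPM in old replicate 1 and 28.2 to 30.7 in old replicate 2. Both lay well below the intervals of the young livers, 160 to 166 and 139 to 145.

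ADH5 (ENSSSCG00000009185) encodes the widely expressed enzyme that oxidises the adduct of formaldehyde with glutathione and reduces S-nitrosoglutathione. Its CPM were 39.4 and 37.6 in YL and 28.5 and 28.6 in OL. The groups did not overlap, and the livers of each age were close to each other (38.5 ± 1.33 CPM in YL and 28.5 ± 0.107 in OL, SD, n = 2 each). The mean was 1.35-fold lower in OL, and limma gave a log2 fold change of -0.42 with a standard error of 0.11 (adjusted p = 0.270). It stayed between -0.45 and -0.38 when any 1 library was left out. After TMM scaling it was -0.22 with a raw p-value of 0.122 in limma, so the size of this small difference rests on the scale chosen. The raw limma p-value also depended on settings that kept the scale. It was 0.0275 in the main fit and 0.0152 over genes above 0 in at least 1 library. With a pseudocount of 0.1 it was 0.23, and over genes with a mean of at least 1 CPM 0.203. A variance trend gave 0.128 and a replicate block 0.0809. ESD, which encodes the esterase that acts on the product of ADH5, had 52.8 and 60.7 CPM in YL and 12.97 and 34.2 in OL (log2 fold change -1.38, standard error 0.54, adjusted p = 0.369, limma).

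In RefSeq (Sscrofa11.1), ADH5 is the next protein-coding gene after ADH4, with METAP1 and EIF4E following it. The values of these neighbours were looked up after those of ADH4 had been seen. METAP1, a methionine aminopeptidase, was at 5.95 and 2.22 CPM in YL and 5.61 and 3.15 in OL, and EIF4E, the cap-binding translation factor, was at 2.56 and 1.75 in YL and 3.51 and 1.23 in OL. For both genes the age groups overlapped, as they did for TRMT10A on the other side of ADH4. STPG2, 6 places from ADH4 on the side of ADH5, was higher in OL without overlap, at 0.065 and 0 CPM in YL and 0.617 and 0.947 in OL (log2 fold change 0.78, standard error 0.15, adjusted p = 0.230, limma). On the opposite side, the gene beyond TRMT10A was MTTP, which loads lipid onto apolipoprotein B. MTTP was at 74.0 and 81.7 CPM in YL and 27.2 and 29.0 in OL (log2 fold change -1.44, standard error 0.13, adjusted p = 0.213, limma), without overlap. Reads of closely related alcohol dehydrogenases may be split between genes when they are counted. ADH1C, which lies near ADH4 in the same order and encodes the classical ethanol-oxidising enzyme, was not paired with an identifier and was not analysed here.

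**Figure D2:**
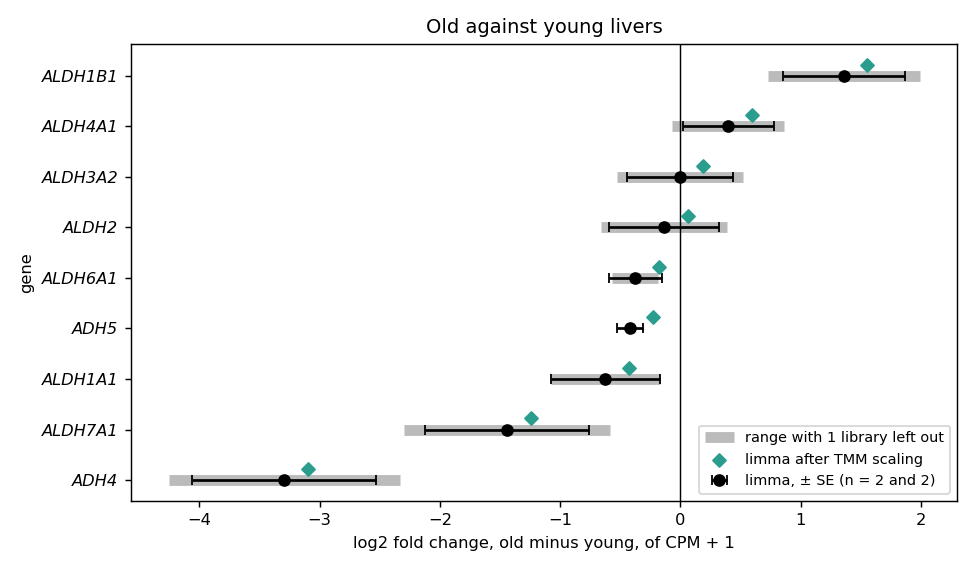
Log2 fold changes (old minus young, of CPM + 1) of the 9 dehydrogenases by limma are plotted with their standard errors (black, n = 2 and 2), with the range over fits that leave out 1 library (grey) and with the value after TMM scaling (green diamonds). ADH4 is at -3.29 and ALDH1B1 at 1.36, no gene passed the adjusted threshold, and the grey ranges of ALDH2, ALDH3A2 and ALDH4A1 cross 0.

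The mitochondrial enzymes ALDH2 and ALDH1B1, which are close relatives and both oxidise acetaldehyde, differed in pattern. ALDH2 (ENSSSCG00000009889), the main acetaldehyde-oxidising enzyme of liver, was at 58.7 and 79.8 CPM in YL and at 42.9 and 90.1 in OL. Old replicate 1 was the lowest of the 4 livers and old replicate 2 the highest, so the groups overlapped. Limma gave -0.14 on the log2 scale with a standard error of 0.46 (adjusted p = 0.926), and 0.06 after TMM scaling, so no direction can be given.

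ALDH1B1 (ENSSSCG00000005361) was at 10.9 and 9.52 CPM in YL and at 17.5 and 43.4 in OL. It was the only one of the 9 genes above both young livers in both old livers, a pattern that 24.4% of all genes tested had. The mean was 2.99-fold higher in OL (10.19 ± 0.944 against 30.5 ± 18.3 CPM, SD, n = 2 each), and old replicate 2 was 2.48-fold above old replicate 1. A log2 fold change of 1.36 with a standard error of 0.51 was obtained by limma (adjusted p = 0.356), with values of 0.73 without old replicate 2 and 1.99 without old replicate 1. The adjusted p-value was 0.181 with the exact test of edgeR, 0.284 with its quasi-likelihood test and 0.0532 with DESeq2. With the exact test and 1 library left out, it ranged from 0.0493 (without old replicate 1) to 1, and ALDH1B1 was called in 1 of the 4 fits.

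ALDH1A1 (ENSSSCG00000028996), the cytosolic enzyme that oxidises retinal to retinoic acid, was at 647 and 1214 CPM in YL and at 456 and 722 in OL. Young replicate 2 was high and old replicate 1 low, and old replicate 2 lay between the young livers, so the groups overlapped. The young livers differed by 1.87-fold, more than the 1.58-fold between the group means. In limma the difference was -0.63 on the log2 scale with a standard error of 0.45 (adjusted p = 0.592), and it was -0.17 without young replicate 2 and -1.08 without young replicate 1. It was -0.30 without old replicate 1 and -0.96 without old replicate 2.

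ALDH3A2 (ENSSSCG00000018041), the membrane-bound fatty aldehyde dehydrogenase, was at 40.6 and 33.5 CPM in YL and at 25.2 and 53.4 in OL. As with ALDH2, the old livers lay on either side of the young ones, and they differed by 2.12-fold. Limma gave a log2 fold change of -0.0045 with a standard error of 0.44 (adjusted p = 0.997), or 0.52 without old replicate 1 and -0.53 without old replicate 2. ALDH3A1, a neighbour of ALDH3A2 in RefSeq, was listed at 0 in 3 libraries and at 0.016 CPM, 1 step of the scale, in old replicate 1.

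The remaining members act in the mitochondrial breakdown of amino acids. ALDH4A1 (ENSSSCG00000024752), which completes proline breakdown to glutamate, was at 47.1 and 46.6 CPM in YL and at 44.7 and 86.1 in OL. Old replicate 1 was slightly below the young livers and old replicate 2 alone was high, so the groups overlapped. The limma estimate was 0.40 on the log2 scale with a standard error of 0.38 (adjusted p = 0.684). It was 0.86 without old replicate 1 and -0.07 without old replicate 2.

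ALDH6A1 (ENSSSCG00000002357), the methylmalonate semialdehyde dehydrogenase of valine breakdown, was at 63.7 and 50.8 CPM in YL and at 38.1 and 50.0 in OL. The groups did not overlap, but old replicate 2 and young replicate 2 differed by less than 1 CPM. Limma gave a log2 fold change of -0.38 with a standard error of 0.22 (adjusted p = 0.518). It was -0.18 without old replicate 1, -0.57 without old replicate 2 and -0.18 after TMM scaling.

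ALDH7A1 (ENSSSCG00000014247), which oxidises the semialdehyde of lysine breakdown, was at 116 and 103 CPM in YL and at 21.5 and 72.9 in OL. Both old livers were below both young livers, and old replicate 1 was 3.39-fold below old replicate 2. The group means were 110 ± 9.25 CPM in YL and 47.2 ± 36.4 in OL (SD, n = 2 each). On the log2 scale the difference by limma was -1.44 with a standard error of 0.68 (adjusted p = 0.436), and it was -0.58 without old replicate 1 and -2.30 without old replicate 2.

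Over the 9 genes, 7 had a lower and 2 a higher mean in OL on log2(CPM + 1), where 52.9% of all genes tested were lower. Of genes with a mean of at least 1 CPM, 60% were lower. The median log2 fold change of the 9 genes was -0.38, against -0.02 over all genes tested. It was -0.15 over genes with a mean of at least 1 CPM. Over the 14 hepatocyte markers it was -0.36, close to that of the 9 genes. The hepatocyte median was -0.28 without old replicate 1 and -0.61 without old replicate 2. After TMM scaling the medians were -0.18 for the 9 genes and -0.16 for the hepatocyte markers. The groups did not overlap for 5 of the 9 genes, with 4 lower (25% of all genes tested) and 1 higher (24.4%). Of genes with a mean of at least 1 CPM, 32.9% were lower and 17.8% higher without overlap. After TMM scaling the log2 fold changes of the 9 genes were higher by 0.19 to 0.20, so that 5 were lower and 4 higher, ALDH2 and ALDH3A2 having changed sign. On that scale 3 were lower without overlap (18.9% of all genes tested) and 2 were higher (29.3%). Of genes with a mean of at least 1 CPM, 24.4% were lower and 23.7% higher without overlap on that scale. The members are not replicates of the condition, as all 9 were measured in the same 4 livers.

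The old livers differed from each other in most of these genes. Old replicate 1 had lower values than both young livers for 8 of the 9 genes (35.4% of all genes tested) and higher values for 1, ALDH1B1 (35.5%). Old replicate 2 had lower values than both for 4 (35.5% of all genes tested) and higher values for 4 (34.7%), and for ALDH1A1 it lay between them. Of genes with a mean of at least 1 CPM, 45.8% were below both young livers and 31.3% above both in old replicate 1. In old replicate 2 these shares were 47.1% and 28.1%. After TMM scaling the numbers below both young livers were 7 in old replicate 1 and 3 in old replicate 2. The shares of all genes tested were then 29.5% and 29.1%, and of genes with a mean of at least 1 CPM 38.2% and 38%. Every member had a higher value in old replicate 2 than in old replicate 1, from near equality for ADH5 to 4.19-fold for ADH4. For the 9 genes the median log2 fold change was -0.18 when old replicate 1 was left out and -0.57 when old replicate 2 was.

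**Figure D3:**
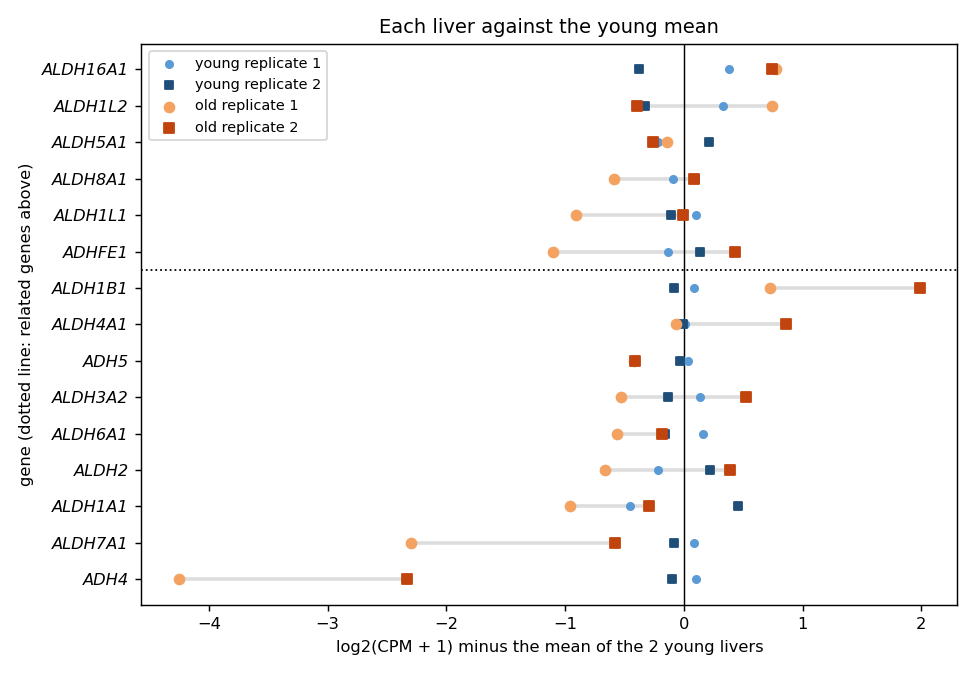
For each gene, log2(CPM + 1) of each liver is plotted relative to the mean of the 2 young livers, for the 9 members below the dotted line and for 6 related dehydrogenase genes with a mean of at least 1 CPM above it. Old replicate 1 (light orange) lies below both young livers for 8 of the 9 members, and old replicate 2 (dark orange) for 4 of them.

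Of 17 further alcohol and aldehyde dehydrogenase genes looked for, 11 had an identifier and 10 could be tested. None was called by limma and none had a raw p-value below 0.05, and the exact test of edgeR called 0. Their mean was lower in OL for 5 and higher for 5, with a median log2 fold change of -0.02. This median was 0.04 without old replicate 1 and 0.06 without old replicate 2. In this list no gene was below both young livers in both old livers (25% of all genes tested), and 3 were above them (24.4%). The only one of the 3 with a mean of at least 1 CPM was ALDH16A1, at 2.80 and 1.25 CPM in YL and 4.01 and 3.88 in OL (log2 fold change 0.76, standard error 0.32, adjusted p = 0.390, limma). ALDH1L1, the folate enzyme that oxidises the formyl group of tetrahydrofolate, was at 231 and 200 CPM in YL and 114 and 214 in OL. Like ALDH2, it was low in old replicate 1 alone.

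The pathways in which the members act were read from lists of further genes. None of these genes was called by limma, and numbers with a raw p-value below 0.05 are given with those of the exact test of edgeR. In the list for ethanol, acetaldehyde and acetate, 9 of 10 genes had an identifier. No gene had a raw p-value below 0.05, the exact test called 0, and the median log2 fold change was -0.22. Its sign depended on 1 library, as it was 0.32 without old replicate 1 and -0.71 without old replicate 2, and it was -0.052 after TMM scaling. CYP2E1, the microsomal ethanol-oxidising cytochrome, was at 1503 and 2028 CPM in YL and 850 and 1365 in OL, and CAT, catalase, was at 979 and 1319 in YL and 386 and 1415 in OL. ACSS1, which activates acetate in mitochondria, was at 1.12 and 0.728 CPM in YL and 4.36 and 1.89 in OL, and it had the smallest p-value of the list (log2 fold change 1.04, standard error 0.38, adjusted p = 0.351, limma).

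Of the retinoid genes, 20 of 26 had an identifier and 17 were tested, with 1 gene higher and 1 lower when a raw p-value below 0.05 was taken, and a median log2 fold change of 0.07 (0.10 without old replicate 1 and 0.01 without old replicate 2). The exact test called 0. RDH12, a retinal reductase, was at 3.20 and 2.88 CPM in YL and 1.53 and 1.197 in OL (log2 fold change -0.78, standard error 0.14, adjusted p = 0.226, limma). DHRS3, which also reduces retinal to retinol, had the opposite pattern, with 13.6 and 12.5 CPM in YL and 24.98 and 38.9 in OL (1.196, standard error 0.27, adjusted p = 0.247, limma). Neither passed the adjusted threshold, and the groups did not overlap for either gene.

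The branched-chain amino acid list, to which ALDH6A1 belongs by function, had 21 of 25 genes with an identifier, all tested. Of these, 17 were lower on average in OL (52.9% of all genes tested, 60% of those with a mean of at least 1 CPM). Their median was -0.56 on the log2 scale (-0.18 without old replicate 1, -0.77 without old replicate 2 and -0.41 after TMM scaling). With a raw limma p-value below 0.05 there were 6 lower (8.93% of all genes tested) and 1 higher (6.78%). Of genes with a mean of at least 1 CPM these shares were 14% and 7.69%. The exact test called 0. The gene that was higher was BCKDHA, the E1 alpha subunit of the branched-chain keto acid dehydrogenase, at 3.32 and 3.84 CPM in YL and 10.3 and 9.29 in OL (log2 fold change 1.24, standard error 0.14, adjusted p = 0.213, limma). DBT, the E2 subunit of the same complex, was at 19.2 and 15.7 CPM in YL and 9.44 and 10.16 in OL (-0.77, standard error 0.16, adjusted p = 0.235, limma). BCKDHB, the E1 beta subunit (-0.87, standard error 0.22, adjusted p = 0.265, limma), and DLD, the E3 subunit (-1.07, standard error 0.22, adjusted p = 0.240, limma), also lay below both young livers in both old livers, so that BCKDHA alone of these 4 lay above. Values below both young livers were found for 17 of the 21 genes in old replicate 1 (35.4% of all genes tested) and for 12 in old replicate 2 (35.5%). Of genes with a mean of at least 1 CPM these shares were 45.8% and 47.1%. After TMM scaling the numbers were 16 and 9, beside 38.2% and 38% of genes with a mean of at least 1 CPM.

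Of the genes of lysine, proline and choline breakdown and of carnitine synthesis, 11 of 18 had an identifier, with 1 lower and 0 higher when a raw p-value below 0.05 was taken, 0 called by the exact test and a median log2 fold change of -0.63 (-0.34 without old replicate 1 and -0.82 without old replicate 2). The gene that was lower, BBOX1, catalyses the last step of carnitine synthesis and was at 22.5 and 27.9 CPM in YL and 7.72 and 12.1 in OL (-1.28, standard error 0.28, adjusted p = 0.245, limma). HYKK, the hydroxylysine kinase, was at 2.29 and 4.68 CPM in YL and 0.585 and 1.63 in OL (-1.08, standard error 0.43, adjusted p = 0.379, limma).

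In the list of enzymes of fatty aldehydes and of aldehydes from lipid peroxides, 11 of 17 genes had an identifier. Of these, 10 were lower on average in OL (52.9% of all genes tested, 60% of those with a mean of at least 1 CPM). Their median difference was -1.20 on the log2 scale (-0.80 without old replicate 1, -1.45 without old replicate 2 and -1.01 after TMM scaling). With a raw limma p-value below 0.05 there were 4 lower (8.93% of all genes tested) and 1 higher (6.78%). Of genes with a mean of at least 1 CPM these shares were 14% and 7.69%. CBR4, a mitochondrial carbonyl reductase subunit, was at 7.60 and 8.34 CPM in YL and 1.90 and 2.83 in OL (-1.43, standard error 0.19, adjusted p = 0.213, limma). GPX4, which reduces lipid hydroperoxides in membranes, was the gene that was higher, at 35.6 and 39.4 CPM in YL and 236 and 260 in OL (2.69, standard error 0.13, adjusted p = 0.213, limma). It was 6.62-fold higher by its means, and the exact test of edgeR called it, the only gene of the list, with an adjusted p-value of 0.00135. Values below both young livers were found for 10 of the 11 genes in old replicate 1 (35.4% of all genes tested) and for 8 in old replicate 2 (35.5%). Of genes with a mean of at least 1 CPM these shares were 45.8% and 47.1%. After TMM scaling the numbers were again 10 and 8.

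**Figure D4:**
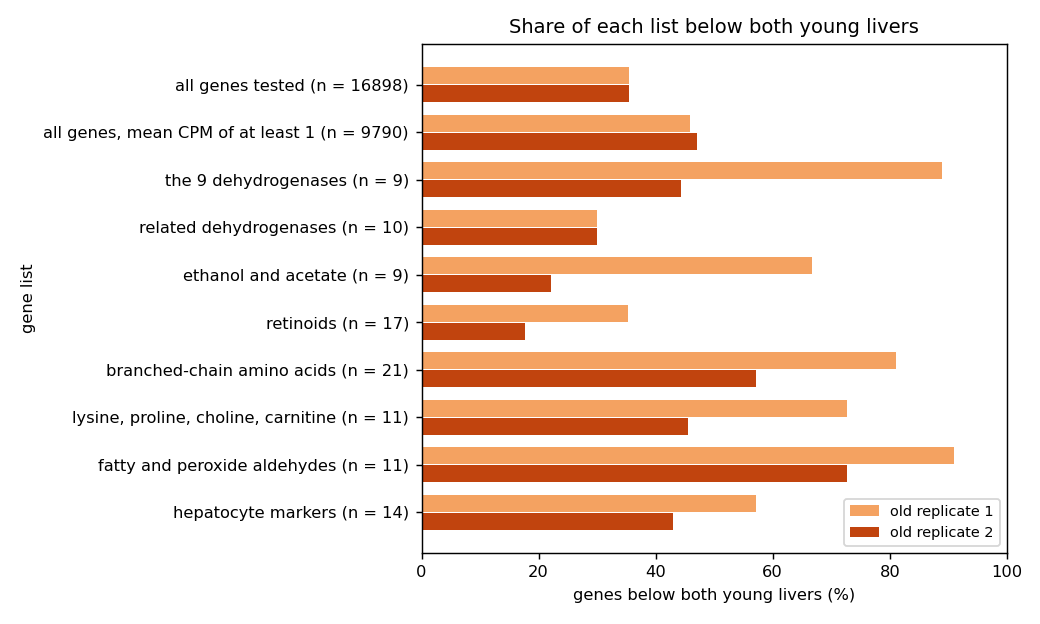
The percentage of tested genes that lay below both young livers is plotted for old replicate 1 (light) and old replicate 2 (dark) in each gene list, with the number tested in brackets. For the 9 dehydrogenases it was 88.9% in old replicate 1 and 44.4% in old replicate 2, beside 35.4% and 35.5% of all genes tested. For genes with a mean of at least 1 CPM it was 45.8% and 47.1%.

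Markers of the liver zones were read beside the members because several dehydrogenases are distributed unevenly across the lobule. Of 9 pericentral markers, 1 was lower and 0 were higher with a raw p-value below 0.05, and the median log2 fold change was -0.04. Of 9 periportal markers, 0 were lower or higher with a raw limma p-value below 0.05. Their median was -0.46 (-0.95 without old replicate 2 and 0.18 without old replicate 1). The remaining marker lists had median log2 fold changes of 0.17 for cholangiocytes (6 genes), 0.46 for T and NK cells (7 genes), -0.06 for B and plasma cells (5 genes), 0.21 for stellate cells and fibroblasts (8 genes), -0.11 for erythroid cells (4 genes) and 0.40 for skeletal muscle (3 genes, sums of at most 6.35 CPM in any library). Without old replicate 1 and without old replicate 2, respectively, they were 0.38 and -0.22 for cholangiocytes, 0.57 and -0.22 for stellate cells and fibroblasts and 0.96 and -0.27 for skeletal muscle, so their sign depended on 1 library, while for T and NK cells they were 0.28 and 0.65. In the same order they were -0.06 and -0.05 for B and plasma cells and -0.16 and -0.06 for erythroid cells. The part of these in the differences of the dehydrogenases was not tested.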

How the data were processed

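RNA-seq was performed on 2 young and 2 old livers, 1 library per sow. The authors mapped their filtered reads with TopHat2 2.0.14 (build Sscrofa10.2), assembled transcripts with StringTie 1.2.3, and deposited values they name TPM from Salmon 0.6.0. The deposited mRNA values are treated as CPM, since 100% of those above 0 in each library were whole multiples of 1 step (within the rounding to 3 decimals), so that dividing by this step gave whole reads. Symbols were joined through an Ensembl identifier table, which matched 11654 of the 21607 rows.

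Differential expression was tested with limma 3.58.1 in R 4.3.3 on log2(CPM + 1), with Benjamini-Hochberg adjustment over all genes tested. Alternatives were a pseudocount of 0.1, other filters, TMM scaling, a variance trend, a replicate block, leaving out each library, and edgeR 4.0.16 and DESeq2 1.42.0 on recovered reads. The exact test used common and tagwise dispersions. With 2 libraries per group and a wide spread between them, a gene that was not called may still differ. No set test was run.

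Members and gene lists were chosen with earlier results of these data known. The text names all members, every related dehydrogenase whose mean reached 1 CPM and whose groups did not overlap, and the 2 genes with the smallest p-value in each pathway list. Others (CYP2E1, CYP1A2 and the other pericentral markers, CAT, ALDH1L1, ALDH3A1, ALB and the neighbours of ADH4, and BCKDHB and DLD) were chosen after their values were seen. The lncRNA, miRNA and circRNA tables were not used here. Python 3.11.15 with pandas 2.3.3 and matplotlib 3.10.9 was used for summaries and figures.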

Additional observations from a re-analysis of the deposited data

How the results depend on the processing

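Over 14 alternatives for each of 9 genes, 108 of 126 values kept their direction and their side of the threshold, 3 became calls and 15 changed sign. Each of the 3 calls was ADH4, at -2.86 with the exact test of edgeR (also with trended dispersion, chosen after seeing the data) and -2.88 with DESeq2, where the number of members called was 1. The sign changed for ALDH2 and ALDH3A2 with TMM scaling (0.061 and 0.19), with the exact test under either dispersion and the quasi-likelihood test of edgeR (0.14 and 0.29) and with DESeq2 (0.11 and 0.27). It also changed for ALDH2 (0.08 without young replicate 2, 0.39 without old replicate 1), for ALDH3A2 (0.13 without young replicate 1, 0.52 without old replicate 1) and for ALDH4A1 (-0.067 without old replicate 2). With 1 library left out, limma ranged from -0.66 to 0.39 for ALDH2, from -0.53 to 0.52 for ALDH3A2 and from -0.067 to 0.86 for ALDH4A1. The median log2 fold change of all genes was -0.02, or 0.04 with TMM scaling, 0.12 with edgeR and 0.10 with DESeq2. Other causes were not tested. The median of the 9 genes ranged from -0.57 to -0.17 and the number lower in OL from 5 to 8.

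Over all mRNAs, limma called 0, but 2 with a mean of at least 1 CPM (9798 genes tested, neither a member), the exact test 399 (534 with trended dispersion), DESeq2 880 and the quasi-likelihood test 0 (1954 higher and 520 lower with a raw p-value below 0.05). The calls of limma were 0 with any 1 library left out. With the exact test and 1 library left out, which assumes that a lone sample varies like the other group and was chosen after seeing the data, there were 1482 and 716 calls without young replicates 1 and 2, and 99 and 297 without old replicates 1 and 2, with 0 or 1 members among them (ALDH1B1 without old replicate 1, ADH4 without old replicate 2). Same-numbered animals are unrelated, and their deviations from the group means had a correlation of 0.0902 across genes. With the replicate number as a block, limma called 0 mRNAs and 0 members, and the log2 fold changes were the same by construction (ADH4 -3.29, median -0.38). Depth did not limit the members, whose lowest count was 432 reads.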
